A study of Mus musculus with 27 samples.

Results

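The genes described here are 10 interferon-inducible GTPase genes of the mouse, 7 guanylate-binding proteins (Gbp2, Gbp3, Gbp5, Gbp6, Gbp7, Gbp8 and Gbp9) and 3 immunity-related GTPases (Irgm1, Igtp and Iigp1). They were picked by symbol, as the rows of a table of normalised read counts that carry these names, and are 10 of its 45070 genes. All 10 were among the 13901 genes that were tested because 3 or more of the 27 samples held 10 or more normalised read counts. Gbp6 and Iigp1 reached 10 in none of the 3 untreated samples and in 8 of the 12 samples stimulated with lipopolysaccharide (LPS), so they passed this filter only through the LPS groups, and their LPS calls, which the filter favoured, are no support for a rise. Counts of members called under LPS are therefore also given over the other 8.

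The cells were bone marrow-derived macrophages (BMDMs), which are grown in culture from bone marrow, here from wild type male C57/BL6 mice 6 to 8 weeks old. All groups shared a pre-treatment of 1 h with DMSO, a solvent, and the untreated group received nothing after it. The other groups then received LPS, a bacterial cell wall molecule sensed by the receptor TLR4, or interleukin-4 (IL-4), a cytokine of type 2 immunity, each at 10 ng/ml and for 0.5, 1, 2 or 4 h, with 3 replicates in each of the 9 groups. The measured RNA was bound to chromatin, a fraction that is rich in transcripts still being made. Nothing in the labels says whether the replicates were separate mice or cultures, so the p-values measure the spread between these samples, which may be technical.

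The normalised totals ranged from 3571492 to 4058199 in the LPS samples and from 2469768 to 2790981 in the untreated and IL-4 samples. Replicate 1 stood apart from the others, since the SD of the log2 ratio over 620 genes was 0.370 to 0.496 between replicate 1 and another replicate of its group and 0.138 to 0.287 between replicates 2 and 3. Of 10 macrophage markers, 8 reached 10 normalised read counts in all 27 samples. Markers of the lymphocytes that make interferon-gamma were low, with sums of 2 to 37 for 6 T cell genes, where Cd3e and Cd3g were at 0 in all samples, and of 0 to 4 for 5 NK cell genes. Neutrophil, dendritic cell and fibroblast marker sums reached 91, 99 and 218, and their part in the results was not tested. Fewer cells of a type and less RNA per cell cannot be told apart in such bulk samples.

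Guanylate-binding proteins are large GTPases that assemble on the membranes of vacuoles holding bacteria or parasites, and on bacteria in the cytosol, and help to open them to inflammasome sensors and caspase-11. The immunity-related GTPases are smaller relatives in which Irgm1 and Igtp (also called Irgm3) act as regulators on the cell's own membranes and hold effectors such as Iigp1 (also called Irga6) inactive there. In macrophages both families are classical interferon targets: type I interferon acts on the interferon-stimulated response element (ISRE), which a complex with IRF9 binds, and interferon-gamma on the gamma-activated site (GAS).

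Except for Iigp1, the members lie on 3 chromosomes (GRCm38). Gbp5 (chr3:142496934-142522344), Gbp7 (chr3:142530336-142550151), Gbp3 (chr3:142560044-142573213) and Gbp2 (chr3:142620663-142638008) lie in this order in a cluster on the plus strand of chromosome 3. Gbp2b (chr3:142594847-142619176), a family gene that is no member, lies between Gbp3 and Gbp2 on the same strand. Gbp8 (chr5:105014153-105053561), Gbp9 (chr5:105076466-105110292) and Gbp6 (chr5:105270702-105293699) are on the minus strand of chromosome 5, Irgm1 (chr11:48865245-48871420, minus strand) and Igtp (chr11:58199556-58207592, plus strand) are on chromosome 11. Gbp2 and Gbp3 each overlap an annotated gene on the other strand (Mir6381 and Gm40158), and since it is not stated that the counting used strand, reads of such pairs cannot be told apart. Of the 76-base stretches of Gbp6 transcripts, 67.22% also occur in another gene, most often Gm43302. That share was 11.22% for Gbp7, 7.87% for Gbp8 and 7.66% for Igtp, which shares with Irgm2. It was at most 3.47% for Gbp9, Gbp5, Gbp3 and Gbp2, and 0 for Irgm1 and Iigp1. Reads with several hits were removed, which leaves Gbp6 values uncertain. Whether the shared stretches lie at other places in the genome was not checked.

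Promoter sequences (RefSeq, GRCm38.p6, 250 bases before to 50 after the annotated start) were matched for 6 of the 10 members, Gbp2, Gbp3, Gbp5, Gbp7, Irgm1 and Igtp. They are shown because these genes rose under LPS at different times, and the letters of the interferon elements can be read beside those courses. Both strands were searched for GAAANNGAAA (ISRE), TTCNNNGAA (GAS) and GGGNNTTTCC (a kappa-B site, the element bound by NF-kappa-B), of which matches could overlap each other. Each line gives the 170 (Gbp5), 110 (Gbp7) or 100 bases directly before the start, 5′ to 3′ on the gene's own strand, with every match in them in capitals. A further GAS match of Gbp5 began 245 bases before its start and is not printed.
Gbp5, chr3:142496764-142496933, plus strand: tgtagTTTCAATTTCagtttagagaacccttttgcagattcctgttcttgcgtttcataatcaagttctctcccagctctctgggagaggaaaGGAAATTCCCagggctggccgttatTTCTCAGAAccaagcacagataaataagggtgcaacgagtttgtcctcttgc
Gbp7, chr3:142530226-142530335, plus strand: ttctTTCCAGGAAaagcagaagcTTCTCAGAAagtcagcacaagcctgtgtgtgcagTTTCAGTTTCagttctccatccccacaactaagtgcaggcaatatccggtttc
Gbp3, chr3:142559944-142560043, plus strand: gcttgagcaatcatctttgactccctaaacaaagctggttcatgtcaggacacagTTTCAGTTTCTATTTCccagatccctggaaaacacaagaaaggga
Gbp2, chr3:142620563-142620662, plus strand: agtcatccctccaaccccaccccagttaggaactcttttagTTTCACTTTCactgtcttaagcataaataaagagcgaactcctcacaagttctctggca
Irgm1, chr11:48871421-48871520, minus strand: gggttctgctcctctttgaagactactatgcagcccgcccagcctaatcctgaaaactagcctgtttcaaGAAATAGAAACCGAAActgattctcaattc
Igtp, chr11:58199456-58199555, plus strand: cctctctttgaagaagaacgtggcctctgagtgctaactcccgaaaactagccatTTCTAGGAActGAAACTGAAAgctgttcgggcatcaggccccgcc

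All 6 of these genes held the ISRE letters, which 1131 of 32851 promoters of the genome held (3.44%). The match began 165 bases before the start in Gbp5 and 59 in Gbp2, 53 in Gbp7 and 34 in Igtp, while Gbp3 and Irgm1 each held 2 overlapping matches, 45 and 39 and 30 and 24 bases before it. The GAS letters were in Gbp5, Gbp7 and Igtp, and in 8.3% of all promoters. Gbp5 alone of the 6 held the kappa-B letters, 77 bases before its start, which 1.63% of all promoters held. Another annotated start of Gbp3 had none of these letters in its window, and such matches describe letters and not bound sites.

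**Figure D1:**
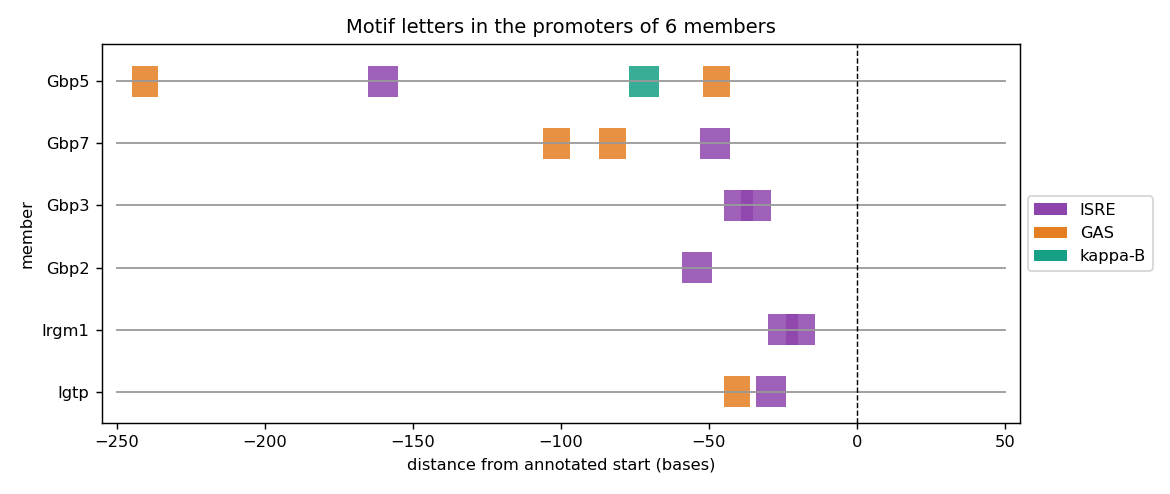
Motif letters in the promoters of 6 members, 1 line a gene, with the distance in bases from the annotated start (0, dashed line) on the horizontal axis and a box for each match. An ISRE box lies within 60 bases of the start in every gene but Gbp5, where it begins 165 bases before it, and Gbp5 alone has a kappa-B box.

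In untreated cells the members were transcribed at low levels. Per kilobase of exon, Irgm1 had the highest normalised read count, 23.9 ± 3.44 (SD, n = 3), followed by Gbp9 with 11.9 ± 2.20. Gbp5, Igtp, Gbp3, Gbp2 and Gbp8 lay between 6.91 and 7.94, less than 1 SD of Igtp, Gbp3, Gbp2 or Gbp8 apart, Gbp7 was at 5.51, and Iigp1 (1.75 ± 0.473) and Gbp6 (0.386 ± 0.268) were lowest. After 4 h of LPS the order of levels per kilobase of exon had changed, with Gbp5 at 2882 ± 32.2 and Gbp2 at 1006 ± 100.2, then Irgm1 at 436 ± 93.7 and Iigp1 at 414 ± 24.1, which did not differ beyond their spread. Gbp3 (281 ± 53.5), Igtp (264 ± 55.3) and Gbp9 (249 ± 5.71) did not differ beyond their spread either, Gbp6 (148 ± 25.3) and Gbp7 (125 ± 23.1) came next, and Gbp8 was lowest at 10.3 ± 2.24. It is not stated in the sources used here whether intronic reads were counted, and per kilobase of gene span Irgm1 came next after Gbp5 and Gbp2 followed it at this time.

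**Figure D2:**
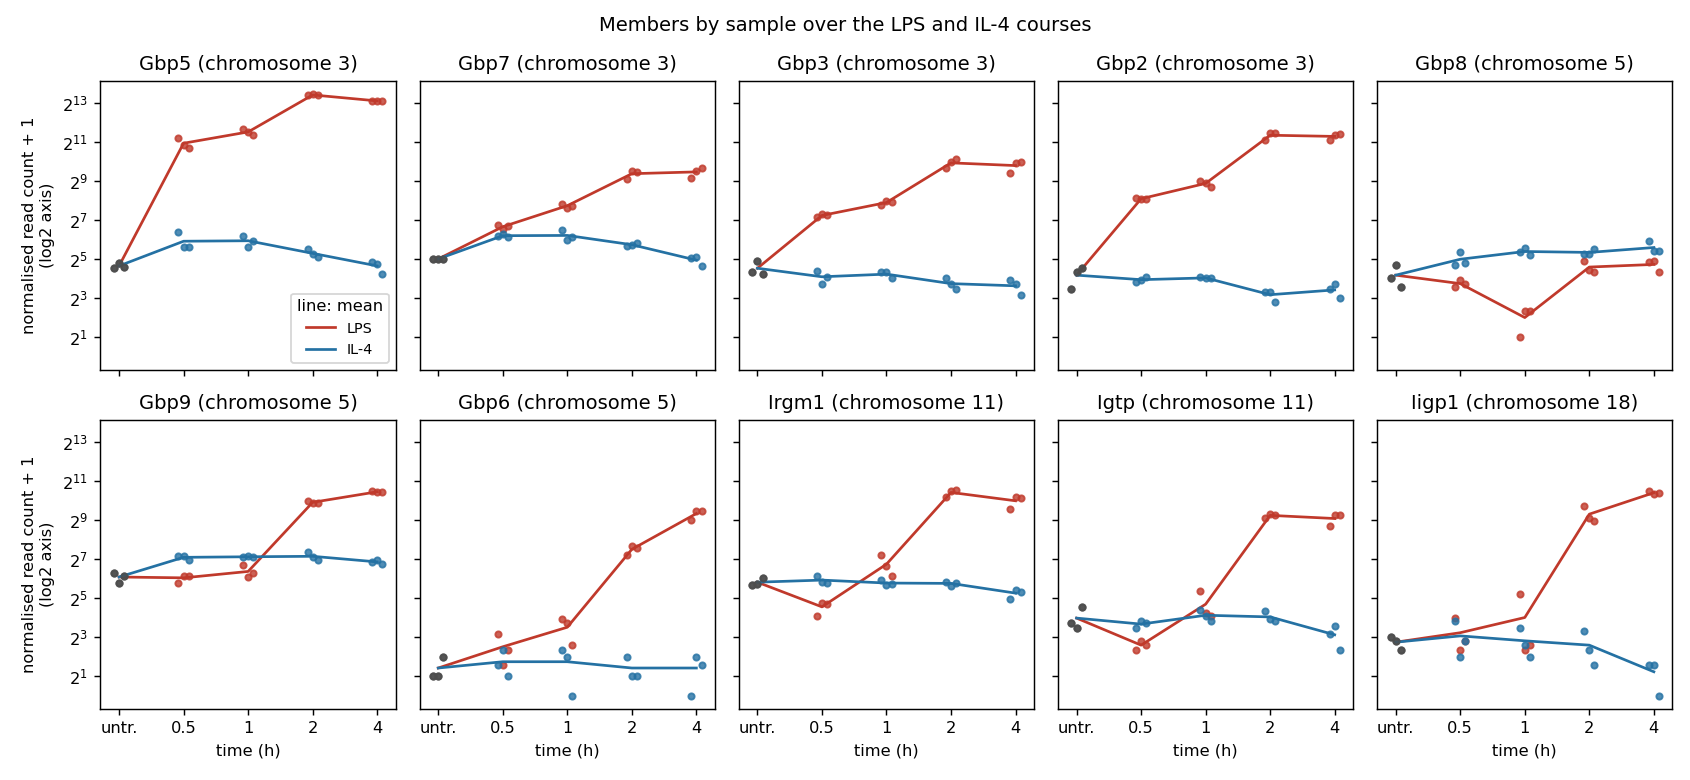
Normalised read counts plus 1 (log2 axis) of the 10 members in each of the 27 samples, with the untreated samples (untr., dark points) and the 4 times of LPS (red) and IL-4 (blue) at even steps on the horizontal axis and lines through the group means. Under LPS the 4 members of chromosome 3 are already higher at 0.5 h, and Irgm1 and Igtp dip at 0.5 h before they rise. Gbp9, Gbp6 and Iigp1 rise mainly from 1 to 2 h on this log2 axis, and Gbp8 is lowest at 1 h.

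LPS raised the 4 members of the chromosome 3 cluster within 0.5 h. Gbp2b, a gene of this cluster that is no member, stood at 0 in each sample after 0.5 h of LPS and was too low to be tested. Gbp5, which is reported to promote NLRP3 inflammasome assembly, stood at 22, 27 and 23 normalised read counts in the untreated samples and at 2368, 1811 and 1638 after 0.5 h of LPS. It reached 3202, 2877 and 2606 at 1 h and 10552, 11062 and 10673 by 2 h, with 8688, 8810 and 8618 left after 4 h. Every LPS sample was thus far above every untreated one, and the ratio of the means was 80.8 at 0.5 h and 448 at 2 h. On the log2(value + 1) scale, used for all changes given here, Gbp5 rose by 6.26 ± 0.13 at 0.5 h (SE, limma adjusted p = 2.34e-14) and by 8.76 ± 0.13 at 2 h (5.87e-16), which ranked 34 and 9 among the changes of the 13901 genes. The median of all genes moved by -0.24 to -0.30 under LPS at the 4 times, which was far less than these changes.

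Gbp2, a GBP with a lipid anchor that coats pathogen vacuoles, went from 10, 19 and 22 in the untreated samples to 277, 269 and 263 at 0.5 h and 516, 473 and 408 at 1 h. After 2 h it stood at 2150, 2744 and 2835, and after 4 h at 2190, 2571 and 2650. Its 3 samples at 0.5 h lay close together and above all untreated ones, a rise of 3.98 ± 0.21 (limma adjusted p = 6.43e-10), and the rise reached 7.22 ± 0.21 at 2 h. Gbp3 followed the same steps at a lower level, from 19, 29 and 18 to 139, 157 and 150 after 0.5 h and 218, 250 and 239 after 1 h. It then reached 799, 982 and 1117, and after 4 h 685, 964 and 983. Its rise was 2.73 ± 0.19 at 0.5 h (adjusted p = 1.01e-08) and 5.41 ± 0.19 at 2 h. Gbp7 is linked to autophagy and to the assembly of the phagocyte oxidase. It was at 31 in each untreated sample and at 107, 90 and 101 after 0.5 h. Its early rise was the smallest of these 4 members (1.65 ± 0.15, adjusted p = 3.90e-07). It climbed to 227, 195 and 210, then 535, 730 and 707, then 559, 730 and 814 at 1, 2 and 4 h. At 0.5 h these 4 genes stood at 10.7% to 18.1% of their highest LPS group, as a mean of the ratios of same-numbered replicates. The untreated level was not subtracted, and it was 4.53% for Gbp7. At 0.5 h this percentage was at most 4.66% in the other members apart from Gbp8, that of Gbp9, which stood at 4.79% in untreated cells. Chromosome was taken as the grouping after the values were seen, and the difference between genes was not tested.

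Irgm1 and Igtp, both regulators, first fell and then rose. Irgm1 had 49, 52 and 64 normalised read counts in the untreated samples and 16, 26 and 25 after 0.5 h of LPS, with no overlap, a log2 change of -1.28 ± 0.25 (limma adjusted p = 0.000494). It then climbed to 146, 99 and 70 by 1 h, to 1157, 1429 and 1468 by 2 h, and stood at 755, 1139 and 1118 after 4 h. Igtp took the same course from 12, 10 and 22 over 4, 6 and 5 at 0.5 h to 40, 18 and 16 at 1 h, 549, 631 and 616 after 2 h, then 406, 603 and 596. Its values at 0.5 h all lay below the untreated ones, a change of -1.32 ± 0.32 (adjusted p = 0.00271) that missed the threshold without replicate 3 of both groups (adjusted p = 0.0590). By 2 h the rise was 4.59 ± 0.25 for Irgm1 (adjusted p = 3.04e-10) and 5.33 ± 0.32 for Igtp (adjusted p = 9.39e-10). At 1 h Irgm1 was called higher (0.87 ± 0.25, adjusted p = 0.00697) but not without replicate 2 (0.0844) or with libraries scaled to equal totals (0.30). Igtp was not called at 1 h (0.67 ± 0.32, adjusted p = 0.0798) and was with median-of-ratios scaling (0.0175), without replicate 3 of both groups (0.0231), without untreated replicate 3 (0.0167) and without LPS 1 h replicate 3 (0.0331).

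On the log2 scale Gbp9, Gbp6 and Iigp1 rose mainly between 1 and 2 h. At 2 h they stood at 68.7%, 28.0% and 46.4% of their 4 h level, as a mean of the ratios of same-numbered replicates. Gbp9, a GBP of the chromosome 5 cluster, was at 77, 53 and 69 untreated, 54, 70 and 69 at 0.5 h and 101, 66 and 76 at 1 h. It then stood at 1009, 922 and 922 after 2 h, and at 1419, 1359 and 1371 after 4 h. The groups overlapped up to 1 h and were widely apart from 2 h on, with changes of 0.28 ± 0.17 at 1 h (limma adjusted p = 0.158) and 3.84 ± 0.17 at 2 h (2.40e-11). Its early call depended on scaling, since equal totals made Gbp9 lower at 0.5 h (adjusted p = 0.0106) and median-of-ratios scaling made it higher at 1 h (0.0169). Gbp6 was at 1, 1 and 3 untreated, 8, 2 and 4 after 0.5 h and 14, 12 and 5 after 1 h. It reached 146, 200 and 190 by 2 h, then 513, 692 and 711 by 4 h. With the untreated samples set to a floor of 3 normalised read counts each, its mean was at least 59.6-fold higher at 2 h and at least 213-fold higher at 4 h. Its call at 0.5 h was marginal (adjusted p = 0.0474), as the groups overlapped and it was lost with equal totals (0.157), without replicate 1 (0.346) or 2 (0.0896), and without untreated replicate 1 (0.135) or 2 (0.145) or LPS 0.5 h replicate 1 (0.231) or 3 (0.0824).

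Iigp1, the effector, had 7, 6 and 4 normalised read counts in the untreated samples and 15, 4 and 6 after 0.5 h of LPS. At 1 h its 3 samples stood at 36, 4 and 5, where replicate 1 alone was above the untreated range. After 2 h they stood at 835, 550 and 490, and after 4 h at 1423, 1270 and 1321, ratios of the means of 110 and 236. All 10 members, and so all of the other 8, were higher at 2 h than at 1 h of LPS, by 1.63 (Gbp7) to 5.88 (Iigp1) on the log2 scale, where 21.5% of all tested genes were called higher and 21.8% lower. From 2 to 4 h Gbp9 was called higher (0.54 ± 0.17, limma adjusted p = 0.0289), 1 of the 8 members apart from Gbp6 and Iigp1, beside 11.4% of all tested genes, and the mean of Gbp6 at 4 h was 3.57 times that at 2 h. The call of Gbp9 was lost without LPS 2 h replicate 2 (0.0786) or 3 (0.0800) and without LPS 4 h replicate 1 (0.0641), 2 (0.0696) or 3 (0.0732), and without replicate 2 (0.144) or 3 (0.263) of all groups. With the replicate number as a block, Gbp5 was called lower over this step (-0.31, adjusted p = 0.0452), as it was without replicate 1 (0.0180), and Iigp1, one of the 2 genes that LPS samples brought into the test, had an adjusted p of 0.0329 (1.13; 0.187 without the block).

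Gbp8 was the member that LPS did not raise above untreated cells. It was at 15, 25 and 11 untreated, at 11, 14 and 12 after 0.5 h of LPS, and at 1, 4 and 4 after 1 h. It came back to 29, 21 and 19 by 2 h, with 28, 29 and 19 after 4 h. The 3 samples at 1 h lay below all others of the LPS course and the untreated group, a change of -2.21 ± 0.38 (limma adjusted p = 0.000122), and the values at 2 and 4 h overlapped the untreated ones (0.47 ± 0.38, adjusted p = 0.292, and 0.60 ± 0.38, adjusted p = 0.182). Its counts are low, and the SE of 0.38 sets how small a change could be told from none.

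Against untreated cells, 5 members were higher and 2 lower after 0.5 h of LPS, beside 19.6% and 34.4% of all tested genes, and 6 were higher and 1 lower at 1 h, beside 24.8% and 39.0%. At 2 and 4 h 9 were higher and none lower by limma, beside 26.9% and 39.0% of all genes at 2 h and 25.9% and 37.6% at 4 h. Of the 8 members that would have passed the filter without LPS, LPS called 4 higher and 2 lower after 0.5 h, then 5 and 1, and 7 and 0 from 2 h on. The members' median change was 0.68, 1.47, 5.37 and 5.21 at the 4 times, beside -0.24, -0.30, -0.29 and -0.26 for all tested genes. Over the same 8 members, without Gbp6 and Iigp1, the median was 0.804, 1.795, 4.963 and 4.793. With equal totals the calls at 0.5 h split into 4 higher and 3 lower. Over the whole course, tested by a moderated F test, 10 members changed, beside 87.6% of all tested genes, and the largest change was upward for 9 (32.9% of all tested genes) and downward for Gbp8 (54.7%). Over the same 8 members it was upward for 7 and downward for Gbp8.

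**Figure D3:**
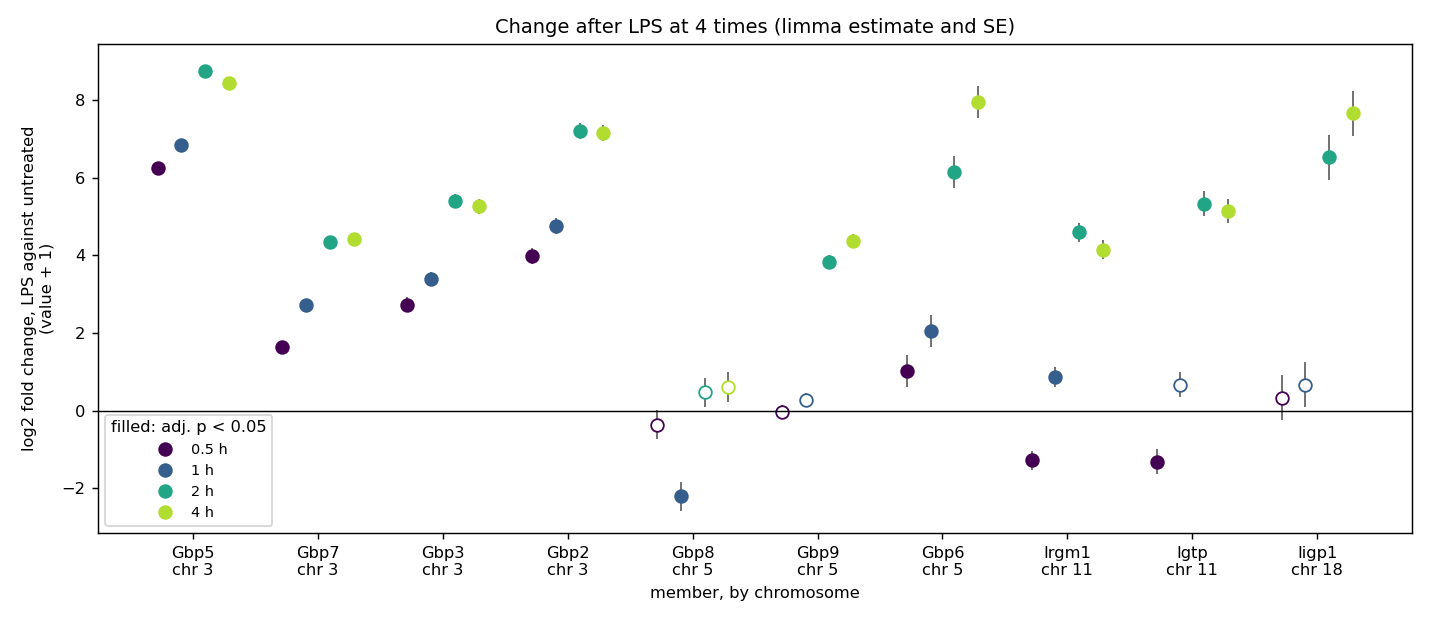
Log2 change of each member after 0.5, 1, 2 and 4 h of LPS against untreated cells on the log2(value + 1) scale, as limma estimates with SE bars, with filled points where the adjusted p is under 0.05. The changes at 2 and 4 h lie between 3.84 (Gbp9) and 8.76 (Gbp5) for every member but Gbp8, whose filled point at 1 h lies at -2.21.

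Between 0.5 and 1 h of LPS 7 members rose and Gbp8 fell, beside 25.1% and 24.6% of all tested genes, and without Gbp6 6 of the 8 rose. Irgm1 (2.15 ± 0.25, limma adjusted p = 4.77e-06) and Igtp (1.99 ± 0.32, adjusted p = 0.000107) rose most over this step, and Gbp8 fell by 1.85 ± 0.38 (adjusted p = 0.000877). The rises of Gbp7 (1.08), Gbp6 (1.04), Gbp2 (0.78), Gbp3 (0.66) and Gbp5 (0.59) were smaller. Without replicate 2 the number of members called over this step fell from 8 to 4, with Gbp2 (adjusted p = 0.0905), Gbp3 (0.0505), Gbp5 (0.0542) and Gbp6 (0.50) lost. Gbp6 was also lost without LPS 0.5 h replicate 2 (0.223) or 3 (0.0978) and without LPS 1 h replicate 1 (0.170) or 2 (0.141), and Gbp3 without replicate 3 (0.0664).

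IL-4 raised Gbp5, Gbp7, Gbp8 and Gbp9. Gbp5 went from 22, 27 and 23 to 81, 48 and 48 after 0.5 h and 72, 48 and 60 after 1 h, and was back at 28, 26 and 18 at 4 h. Gbp7 went from 31 in each untreated sample to 70, 77 and 69 after 0.5 h, then 88, 62 and 68, then 49, 52 and 55, and ended at 32, 33 and 24. Both groups of early values lay above all untreated ones, with rises of 1.22 ± 0.23 for Gbp5 (limma adjusted p = 0.00231) and 1.19 ± 0.15 for Gbp7 (adjusted p = 8.54e-05) at 0.5 h, and at 4 h both genes overlapped the untreated samples (-0.02 and -0.07). At 2 h Gbp7 was still higher (0.73 ± 0.15, adjusted p = 0.00256; 0.0547 without replicate 2 and 0.0610 without replicate 3), while Gbp5 was called with the replicate block (0.64, adjusted p = 0.0186) and not without it (0.0594). Between neighbouring IL-4 times the only member called was Gbp7, lower at 4 than at 2 h (-0.80 ± 0.15, adjusted p = 0.00736; 0.142 without replicate 2 and 0.319 without replicate 3), beside 2.40% of all tested genes higher and 3.09% lower. No member was called by limma from 0.5 to 1 h (4.21% and 3.61% of all genes) or from 1 to 2 h (4.03% and 5.37%), with 0 and 3 members at an unadjusted p under 0.05. With the block, Gbp5 also fell from 1 to 2 h (-0.64, adjusted p = 0.0376; 0.120 without) and from 2 to 4 h (-0.66, 0.0396; 0.139 without).

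For Gbp9 and Gbp8 of chromosome 5 the IL-4 rise lasted to 4 h. Gbp9 stood at 141, 141 and 121 after 0.5 h, then 137, 139 and 135, then 160, 135 and 123, and after 4 h at 113, 122 and 107, against 77, 53 and 69 in untreated cells. All 12 IL-4 samples were above the 3 untreated ones, and the change was 1.02 ± 0.13 at 0.5 h (limma adjusted p = 0.000115) and 0.79 ± 0.13 at 4 h (0.000644; 0.0510 without replicate 2). Gbp8, which LPS lowered at 1 h, rose from 15, 25 and 11 to 25, 40 and 27, then 40, 46 and 36, 37, 37 and 44, and 59, 41 and 41 at the 4 times. From 1 h on its IL-4 samples did not overlap the untreated ones, and the change was 1.28 ± 0.27 at 1 h (adjusted p = 0.00315), 1.23 ± 0.27 at 2 h (0.00321) and 1.47 ± 0.27 at 4 h (0.000991), with p of 0.0836 and 0.124 at 1 and 2 h without replicate 3. At 0.5 h its call (0.86 ± 0.27, adjusted p = 0.0412) was lost in 7 of the 9 fits that left out 1 library or 1 replicate number, with adjusted p of 0.0664 to 0.328, and held without untreated replicate 2 (0.00653) or IL-4 0.5 h replicate 1 (0.0402).

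The other members fell late under IL-4 or were not called. Gbp2 went from 10, 19 and 22 to 9, 9 and 6 at 2 h (-0.95 ± 0.28, limma adjusted p = 0.0214) and 10, 12 and 7 at 4 h (-0.71 ± 0.28, adjusted p = 0.0797). Gbp3 went from 19, 29 and 18 to 15, 12 and 10 at 2 h (-0.77 ± 0.27, adjusted p = 0.0452) and 14, 12 and 8 at 4 h (-0.90 ± 0.27, adjusted p = 0.0233). Irgm1 was at 30, 42 and 39 at 4 h against 49, 52 and 64 (-0.56 ± 0.16, adjusted p = 0.0171). Each of these calls was lost without replicate 2 or without replicate 3 of both groups (adjusted p of 0.0803 to 0.347). Single libraries decided them too: without untreated replicate 2 or 3 or IL-4 2 h replicate 3 the adjusted p of Gbp2 at 2 h was 0.0805, 0.0975 and 0.0929. For Gbp3 at 2 h it was 0.0569 and 0.184 without untreated replicate 1 and 2 and 0.102 and 0.155 without IL-4 replicate 2 and 3, and at 4 h 0.106 and 0.103 without untreated replicate 2 and IL-4 replicate 3. For Irgm1 it was 0.0780 without untreated replicate 3 and 0.0696 without IL-4 4 h replicate 1. Gbp2 at 4 h was called without untreated replicate 1 (0.00970).

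Iigp1 had 2, 2 and 0 normalised read counts after 4 h of IL-4, below the 7, 6 and 4 of untreated cells. With the IL-4 samples set to the floor of 3 its mean was at least 1.89-fold lower, and the limma adjusted p was 0.0527 without and 0.00323 with the replicate block. Over the step from 2 to 4 h it was 0.238 without and 0.0296 with the block. Igtp ended at 8, 11 and 4 against 12, 10 and 22 (-0.87 ± 0.34, adjusted p = 0.0781; 0.0343 without IL-4 4 h replicate 2), and Gbp6 stayed between 0 and 4 in all 12 IL-4 samples. Gbp2 fell from 1 to 2 h with the block (adjusted p = 0.0487) and not without it (0.0695).

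After 0.5 and 1 h of IL-4, 4 members were higher and none lower by limma, with the same 4 at an unadjusted p under 0.05, beside 8.15% and 8.14% of all tested genes at 0.5 h and 11.1% and 9.83% at 1 h. At 2 h 3 were higher and 2 lower, beside 14.3% and 13.2%, and at 4 h 2 were higher and 2 lower, beside 13.4% and 12.5%. The members' median change was 0.23, 0.15, 0.06 and -0.35 at the 4 times, beside -0.02, -0.01, 0.00 and 0.02 for all tested genes. Over the whole IL-4 course 6 members changed, beside 40.3% of all tested genes (19.4% upward and 20.9% downward). These were Gbp5, Gbp7, Gbp8 and Gbp9 with a largest change upward and Gbp2 (adjusted p = 0.0397) and Irgm1 (0.0229) downward. With the block Gbp3 (0.0295) and Iigp1 (0.00514) joined them, which without it stood at 0.0672 and 0.0985. The call of Gbp2 was lost without any 1 of 12 of the 15 libraries, with adjusted p of 0.0530 to 0.113, that of Gbp8 without replicate 3 (0.123), and that of Irgm1 without any 1 replicate number (0.109 to 0.191) and without IL-4 4 h replicate 1 (0.107) or 3 (0.0529).

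**Figure D4:**
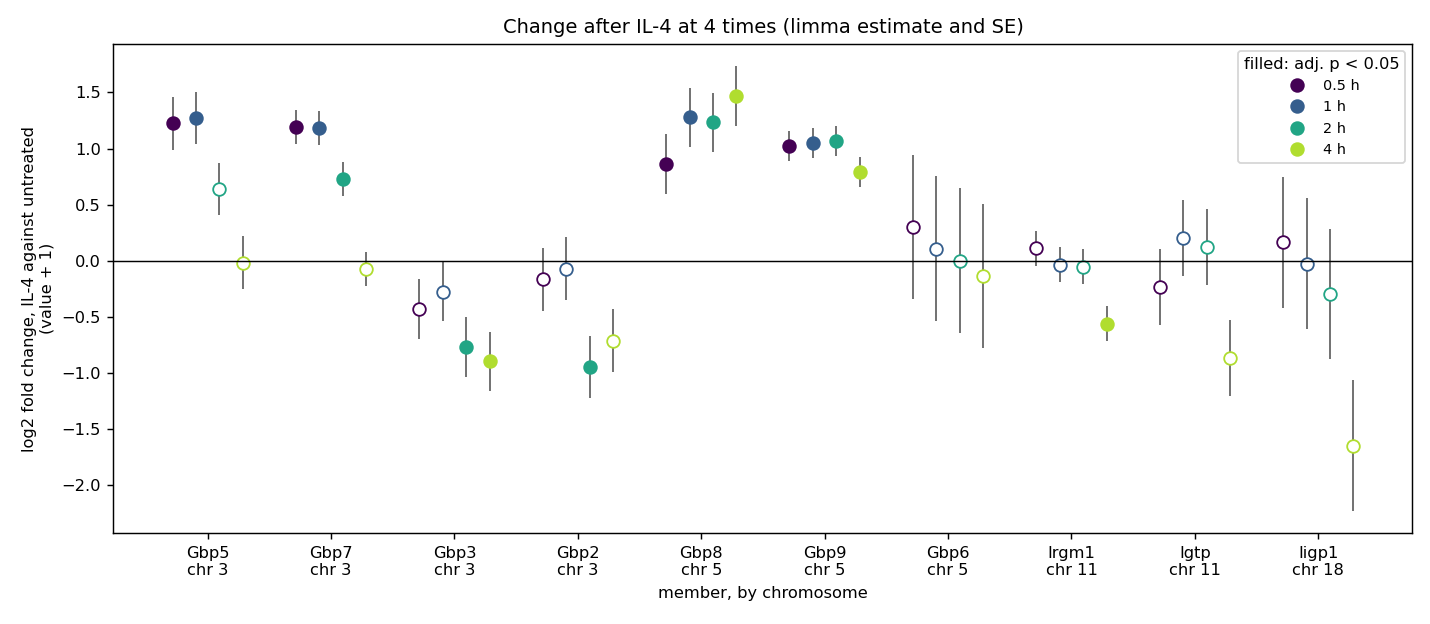
Log2 change of each member after 0.5, 1, 2 and 4 h of IL-4 against untreated cells on the log2(value + 1) scale, as limma estimates with SE bars, with filled points where the adjusted p is under 0.05. Gbp5 and Gbp7 are higher at 0.5 and 1 h and back near 0 at 4 h, Gbp8 and Gbp9 stay higher at 4 h (1.47 and 0.79), and the filled points below 0 are Gbp3 and Gbp2 at 2 h and Gbp3 and Irgm1 at 4 h.

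LPS and IL-4 samples were also compared directly at each time, in a fit of all 27 samples. At 0.5 h 4 members were higher with LPS, led by Gbp5 (5.04 ± 0.19, limma adjusted p = 4.15e-16), and 4 were lower, Irgm1 (-1.39 ± 0.22, adjusted p = 1.05e-05), Gbp8 (-1.22 ± 0.32), Igtp (-1.08 ± 0.33; adjusted p = 0.0555 without replicate 2) and Gbp9 (-1.06 ± 0.15), beside 18.0% and 35.8% of all tested genes. Gbp7, the gene higher with LPS by the least, stood at 107, 90 and 101 against 70, 77 and 69 with IL-4, and its call (0.46 ± 0.16, adjusted p = 0.0162) was lost with equal totals (0.703), without replicate 3 (0.140), without LPS 0.5 h replicate 1 (0.0634) and without IL-4 0.5 h replicate 3 (0.0517). At 1 h 6 were higher and 2 lower, beside 24.0% and 40.5%, and without Gbp6 and Iigp1 5 of 8 were higher. The lower ones were Gbp8 (-3.49 ± 0.32, adjusted p = 1.25e-09), with 1, 4 and 4 against 40, 46 and 36, and Gbp9 (-0.77 ± 0.15, adjusted p = 6.99e-05), which changed sides by 2 h. Irgm1 was among the higher ones (0.90 ± 0.22, adjusted p = 0.00100; 0.0794 with equal totals), and Gbp6 stood at 14, 12 and 5 with LPS and at 4, 3 and 0 with IL-4, a call lost without IL-4 1 h replicate 3 (0.0584).

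At 2 and 4 h 9 members were higher with LPS and Gbp8 was lower, beside 26.4% and 42.3% of all tested genes at 2 h and 26.1% and 41.9% at 4 h. Without Gbp6 and Iigp1, 7 of 8 were higher at both times. At 4 h the mean of Gbp5 was 363-fold and that of Gbp2 256-fold higher with LPS, and with IL-4 at the floor Iigp1 was at least 446-fold and Gbp6 at least 213-fold higher. Gbp9 was 6.83-fold higher at 2 h and 12.1-fold at 4 h. Gbp8 differed by -0.77 ± 0.32 at 2 h (limma adjusted p = 0.0357) and by -0.87 ± 0.32 at 4 h (0.0187). Both calls were lost with median-of-ratios scaling (0.187 and 0.120) and without replicate 3 (0.262 and 0.133), at 2 h also without replicate 2 (0.120). At 2 h it was also lost without any 1 of 5 of the 6 libraries (adjusted p of 0.0547 to 0.116), and at 4 h without LPS replicate 3 (0.0930) or IL-4 replicate 1 (0.0864).

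Of 15 other genes listed with these 2 families, 10 could be tested, and most followed the late members under LPS. At 4 h 9 of the 10 were higher and none lower by limma, beside the 25.9% and 37.6% given above, with a median change of 4.35. The rise was 6.71 for Gbp4, 6.42 for Tgtp2, 5.18 for Gm12250, 5.15 for Gbp11, 4.56 for Gm4951 and 4.14 for Irgm2, and 3.26 to 3.63 for Gm5431, Gm4841 and F830016B08Rik. Of the 76-base stretches of Tgtp2 transcripts, 81.17% also occur in Tgtp1, and 26.79% of those of Gm5431 occur in another gene. This leaves the values of both genes uncertain. Tgtp2, Gbp11 and Gm4841, at 3 or less in all untreated samples, were at least 103-fold, 11.6-fold and 4.89-fold higher than that floor, and these 3 passed the filter only through LPS samples. Without them 6 of 7 were higher at 4 h, with a median change of 4.14. At 0.5 h 3 of the 10 tested were lower and 1 higher by limma, beside 34.4% and 19.6% of all tested genes. The lower ones were Gm12250 (7, 7 and 14 to 2, 0 and 3), Gm5431 (111, 54 and 99 to 23, 24 and 27) and Irgm2 (34, 47 and 50 to 16, 13 and 16), with adjusted p of 0.000270 to 0.000686. These 3 genes, like Irgm1 and Igtp, lie on chromosome 11. Tgtp2 lies there too, was at 3 or less in both groups and was not called. Chromosome was taken as the grouping after the values were seen. Irgq, a relative without known interferon control, was higher at 0.5 h (1.69 ± 0.17, adjusted p = 1.18e-06) and not called at 4 h. Of 7 of these genes with a promoter in the table, 5 held the ISRE letters.

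Under IL-4, Gbp4 and Gbp11 rose among these other family genes, at low counts. They were the 2 of 10 called higher by limma at 1 h and at 2 h, beside 11.1% and 14.3% of all tested genes, with 0 lower. At 4 h 1 was higher and 1 lower, beside 13.4% and 12.5%. Both genes lie on chromosome 5 like Gbp8 and Gbp9, but so does Gbp6, which did not rise. This grouping too was made after the values were seen. Gbp4 went from 4, 5 and 2 to 12, 7 and 9 at 1 h (limma adjusted p = 0.0280) and 10, 10 and 10 at 2 h (0.0134), and without replicate 3 its adjusted p was 0.348 and 0.242. Gbp11 was at 0 in all untreated samples and at 4, 9 and 6 after 1 h, then 5, 7 and 5, then 3, 8 and 10 (adjusted p = 0.00155, 0.00157 and 0.00116), at least 1.89-fold to 2.33-fold above the floor. Irgq was lower at 4 h (-0.54, adjusted p = 0.0494), and none of the other 7 was called at any time. The other genes, Gbp2b, Gbp10, Tgtp1, Irgc1 and Gvin1, had values too low to be tested. Of the 76-base stretches of their transcripts, 98.31% for Gvin1, 77.59% for Gbp10 and 77.07% for Tgtp1 also occur in another gene. Reads with several hits were removed, and whether this made the values of these genes low was not tested.

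Of 17 listed genes of interferon signalling, which acts upstream of these GTPases, 16 were tested, of which 7 were higher and 2 lower after 0.5 h of LPS, beside 19.6% and 34.4% of all tested genes. At the later times 13 were higher and 0 lower (24.8% and 39.0%), then 13 and 2 (26.9% and 39.0%), then 12 and 1 (25.9% and 37.6%). Ifnb1 passed the filter only through LPS samples, and without it 6 and 12 of 15 were higher at 0.5 and 1 h. Irf1, a transcription factor that binds interferon elements, went from 74, 63 and 65 to 1303, 742 and 862 within 0.5 h (3.79 ± 0.28, limma adjusted p = 2.70e-08). Ifnb1, which encodes interferon-beta, was at 0 in all untreated and IL-4 samples, at 10, 2 and 3 after 0.5 h of LPS, at 17, 16 and 5 after 1 h, then at 2, 1 and 0. Stat2, which signals from the type I interferon receptor, was lower at 0.5 h (-0.88 ± 0.19, adjusted p = 0.000969; 0.0532 without replicate 2) and higher at 2 h (3.63 ± 0.19). Irf9, its partner, rose by 1.86 ± 0.16 at 2 h. Ifng, which encodes interferon-gamma, was at 0 but for 1 normalised read count in each of 2 samples at 4 h of LPS and was not tested. With IL-4, 5 of the list were higher at each time, beside 8.15% to 14.3% of all tested genes, Stat2 among them (0.71 to 1.04, adjusted p of 8.24e-05 to 0.00267). At each time 1 or 2 were lower, beside 8.14% to 13.2%, and Irf9 was not called. The list's median change was 0.50 to 1.85 with LPS and 0.05 to 0.18 with IL-4. Without Ifnb1 it was 0.331 to 1.914 with LPS and 0.108 to 0.299 with IL-4.

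Of 16 genes that work beside these GTPases in inflammasomes and in the autophagy machinery, all tested, 6 to 8 were higher and 3 to 5 lower with LPS at the 4 times, beside 19.6% to 26.9% and 34.4% to 39.0% of all tested genes. Their median change was -0.10 to 0.64, beside -0.24 to -0.30 for all tested genes. The largest rise was that of Nlrp3, an inflammasome sensor, from 427, 335 and 408 to 16319, 15974 and 13463 at 0.5 h (5.29 ± 0.12, limma adjusted p = 7.43e-14), and the largest fall that of Gabarapl1, an autophagy gene, from 58, 60 and 68 to 5, 8 and 8 at 4 h (-3.00 ± 0.27, adjusted p = 1.19e-07). With IL-4, 5, 3, 2 and 1 were higher and 0, 1, 5 and 5 lower at the 4 times, beside 8.15% to 14.3% and 8.14% to 13.2% of all tested genes. The largest changes were those of Atg16l1, which helps to place these GTPases on vacuoles, from 171, 169 and 156 to 350, 409 and 428 at 2 h (1.25 ± 0.10, adjusted p = 6.45e-07), and of Aim2, a DNA sensor, from 338, 510 and 526 to 128, 177 and 226 at 2 h (-1.38 ± 0.27, adjusted p = 0.00157; 0.0715 without replicate 2).

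Over the 9 group means of log2(value + 1), Gbp2 and Gbp3 had the most similar courses of any pair of members (Pearson r = 0.999), followed by Irgm1 and Igtp (0.995), while Gbp6 was nearest to Iigp1 (0.982). Gbp8 was unlike all others, with Gbp9 nearest at r = 0.267. Outside both families, the 5 protein-coding genes most like the mean standardised course of the members, among 7551 with a group mean of at least 50, were Ap3b1, Usp25, Abcc4, Oas1a and Fhod3, with r of 0.993 to 0.994. These correlations describe 9 points that share the normalisation and the LPS groups' high values.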

How the data were processed

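Chromatin-associated RNA of 27 BMDM samples was sequenced. The authors aligned reads with TopHat2 2.1.1 to mm10, removed reads with several hits and in blacklisted regions, counted reads per gene (GRCm38.p6), and scaled the counts on invariant genes. What they deposited is the normalised read count of each gene as a whole number, a score here rather than a raw count, so depth in reads is not given. Differential tests therefore used limma 3.58.1 in R 4.3.3 with a mean-variance trend on log2(value + 1), for the 13901 of 45070 genes with at least 10 in at least 3 samples. Samples were grouped by label. Each LPS or IL-4 course was fitted with the untreated group (15 samples), LPS against IL-4 with all 27, with Benjamini-Hochberg adjustment over all tested genes, a threshold of 0.05 and two-sided tests. Groups with every sample at 3 or less were set to a floor of 3 for fold changes. The fits were also run on simulated independent samples. These held no offset of replicate 1 and no general shift of the LPS totals, so they do not test the fits under either. No interval for counting error was given.

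Alternatives were other scalings (median of ratios, equal totals), pseudocounts (0.5, 8), filters (none, a mean of at least 50), only the 2 groups compared, replicates 2 and 3 averaged, each library or replicate number left out, and the replicate number as a block. Same-numbered samples of 2 groups deviated together from their group means, with correlations of 0.09 to 0.71 in 54 pairs, 53 of them over 0.1. The lowest was that of replicate 2 between LPS 4 h and untreated, where replicates 1 and 3 had 0.37 and 0.25. Deviations from a mean of 3 samples depend on each other, and replicate 1 stood apart in each group. Whether replicates 2 and 3 are paired across groups therefore cannot be told from these correlations. The main fits held group only and ignored any pairing, which the labels do not give. The members and gene lists (other family genes, interferon signalling, inflammasome and autophagy partners, cell markers) were chosen with earlier results of these data known. The genes named were, by rule, the members, the other family genes, 5 signalling genes (Ifnb1, Ifng, Stat2, Irf1 and Irf9; another is not reported here), the largest rise and fall of the partner list per stimulus, and the 5 genes most like the members. The study's ImpulseDE2 fits were not run.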

Additional observations from a re-analysis of the deposited data

Results flagged for a closer look

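Of the members, 5 gene and time pairs were singled out because LPS and IL-4 moved the gene in opposite directions against untreated cells, with both changes past the threshold, and the direct test of LPS against IL-4 also passed (limma, adjusted over 13901 genes). Gbp8 at 1 h fell by 2.21 on the log2 scale with LPS and rose by 1.28 with IL-4, a difference of -3.49 (adjusted p = 1.25e-09). Gbp2 at 2 h changed by 7.22 and -0.95, a difference of 8.17 (1.75e-19). Gbp3 changed by 5.41 and -0.77 at 2 h, a difference of 6.18 (2.55e-17), and by 5.27 and -0.90 at 4 h, a difference of 6.17 (2.31e-17). Irgm1 at 4 h changed by 4.15 and -0.56, a difference of 4.71 (4.46e-15). The adjusted p given are part of the rule that singled these pairs out and add no support. For Gbp2, Gbp3 and Irgm1 the LPS rise makes up most of the difference, so the direct test does not bear on the IL-4 fall. The changes of a pair share the same 3 untreated samples, and all IL-4 falls among them were lost without replicate 2 or without replicate 3. The cause of the opposite directions was not tested.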

How the results depend on the processing

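With 3 samples a group, calls near the threshold rested on single libraries, and genes with under 10 normalised read counts (Gbp6 and mostly Iigp1 in untreated and IL-4 samples) carried coarse values, since depth in reads is not given. Of the values of single members, 1323 stayed called in the same direction or stayed not called when 1 library was left out, 52 lost the call and 5 gained one. For replicate numbers left out these counts were 553, 42 and 5, and for the other settings 1697, 41 and 22. The first count of each set includes values called in neither fit, whatever their sign. No member value that was called in either fit reversed. The member calls after 2 and 4 h of LPS numbered 9 at every setting of scaling, filter and pseudocount.

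The number of members called from 2 to 4 h of LPS (2) was 1 with no filter, 4 with the replicate block, 1 with replicates 2 and 3 averaged and 0 to 4 with a replicate left out. From 0.5 to 1 h of LPS (8) it was 4 to 8 with a replicate left out. With IL-4 it was 3 at 2 h (5) and 2 at 4 h (4) with replicates 2 and 3 averaged, 2 at 4 h in a fit of only the 2 groups, and 1 to 5 at 2 h and 1 to 6 at 4 h with a replicate left out. From 1 to 2 h of IL-4 (0) it was 1 among genes with a mean of at least 50 and 2 with the block, and from 2 to 4 h (1) it was 3 with the block, 0 with replicates 2 and 3 averaged or only the 2 groups, and 0 to 1 with a replicate left out. Over the IL-4 course (6) it was 3 to 6 with a replicate left out. The replicate block changed no other member call than those given with the results.

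Scaling to equal totals reversed 9 values of listed genes that are no members: Ifnar2 (-0.49), Tyk2 (-0.51) and Atg7 (-0.10) at 0.5 h of LPS, Ifngr1 (-0.38), Irf3 (-0.46) and Gsdmd (-0.16) at 1 h, Irgq (-0.43) and Atg3 (-0.56) at 2 h, and Atg3 (-0.33) at 4 h. With equal totals the median of all genes moved by -0.73 to -0.91 under LPS, and with median-of-ratios scaling by -0.00 to -0.05.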
